A study of Mus musculus with 6 samples.

Results

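The genes described here encode the molecules that present antigen to T cells and the proteins that supply, load and regulate them. They were chosen by name from the annotation of the array: every probe set with a single symbol starting with H2- and 13 further genes, each gene being represented by its probe set with the highest mean over the 6 arrays. This gave 42 of the 19937 genes measured. By role, 21 belong to MHC class I (20 heavy-chain genes or pseudogenes and the light chain B2m), 9 to class II, and 12 to peptide supply, lysosomal processing, transcriptional control or lipid presentation. H2-Ke6, a hydroxysteroid dehydrogenase gene of the same chromosomal region, met the rule by its name, is counted among the 12 and was not called (log2 difference -0.34).

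Transcript levels were measured with total RNA on 6 Affymetrix arrays of mouse CD4-CD8- (double-negative, DN) thymocytes, the earliest T-cell precursors of the thymus, in 2 groups of 3. The DNTLX3+ group holds sorted wild-type DN thymocytes that received the retroviral vector pMSCV-GFP-TLX3 and were then grown for 4 to 5 weeks on irradiated OP9-DL1 cells, a mouse stromal line that displays a Notch ligand, with interleukin 7 and Flt3 ligand. TLX3 is a homeobox oncogene of T-cell acute lymphoblastic leukaemia. The RAG-/- group holds DN thymocytes of Rag2-/- mice, which cannot assemble antigen receptors and stop at the DN stage. The labels give C57Bl/6 mice aged 4 to 6 weeks and mark the first group as tumoral and the second as control. Arrays of cells given the empty vector were not analysed here, so genotype, vector and, as far as the labels show, culture differ together between the groups and cannot be told apart. Nothing in the labels ties a replicate to its own mouse or culture, and the p-values below therefore rest on the spread among these arrays, which may be technical.

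Class I molecules pair a heavy chain with beta-2 microglobulin and carry peptides that the proteasome has cut and the TAP transporter has moved into the endoplasmic reticulum, and nearly all nucleated cells make them. Class II molecules are alpha and beta chain pairs that assemble with the invariant chain CD74, receive peptides in the endosome after cathepsins have trimmed that chain, and are made by dendritic cells, macrophages, B cells and thymic epithelium. Mouse T cells and their precursors are known for making class I and for lacking class II. NLRC5 is the transactivator of class I genes and CIITA that of class II genes, and both act through the same RFX and NF-Y factors on the promoter. In bulk RNA such as this, fewer cells of a type and less RNA per cell cannot be told apart.

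The transferred and the deleted gene were examined first. Tlx3 was higher in the DNTLX3+ arrays by 1.24 ± 0.18 log2 units (SE, limma adjusted p = 0.00103). Rag2 had 7.44, 7.84 and 7.87 in DNTLX3+ arrays, against 8.11, 8.01 and 7.95 in RAG-/- arrays, so its signal was not lower in the arrays labelled RAG-/- (-0.30 ± 0.15 SE, not called). Where the probes of Rag2 lie relative to the deleted part is not known here, so this probe set does not check the deletion. A marker that fell was called lower by the rule of the next paragraph, as were 5.07% of all genes. Of 10 DN thymocyte markers, 3 (Ptcra, Il2ra and Cd7) fell and 7 were not called, and 8 of 10 had a DNTLX3+ mean above the array medians, which ran from 6.22 to 6.35. Markers of other cells moved between the groups as well. Of 17 myeloid and dendritic markers without MHC genes, 12 fell in DNTLX3+ arrays, as did 7 of 12 thymic epithelial and 8 of 10 NK markers, while none of 9 measured B-cell markers was called. On the linear scale, the summed level of the myeloid list ran from 857 to 989 in DNTLX3+ arrays and from 3066 to 3817 in RAG-/- arrays, and that of the epithelial list from 1113 to 1422 in DNTLX3+ and from 6205 to 11508 in RAG-/- arrays. The means of 15 of the 17 myeloid and 7 of the 12 epithelial markers lay under the array medians in the DNTLX3+ group, against 5 and 1 in the RAG-/- group. For the NK list the sum ran from 1386 to 1880 in DNTLX3+ and from 2984 to 3547 in RAG-/- arrays, and for the B-cell list from 512 to 630 in DNTLX3+ and from 658 to 688 in RAG-/- arrays. The B-cell sum leans on its brightest gene, Cd79b, with means of 7.90 in DNTLX3+ and 8.61 in RAG-/- arrays. The median log2 difference of that list, DNTLX3+ minus RAG-/-, was 0.24, the other way. The part of these cells in the results below was not tested.

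Calls required both an adjusted p below 0.05 (limma, with Benjamini-Hochberg correction over all tested probe sets) and a log2 difference of 1 or more in size. By this rule 12 of the 42 genes were lower and 1 was higher in DNTLX3+ arrays, where 5.07% of all genes were called lower and 1.44% higher. Of all genes with at least 1 group mean above the array medians, 8.29% were called lower and 1.56% higher. All 12 falls are among the 27 members of that kind, and the other 15 members had both means under the array medians, where a value may be background. The falls comprise 4 of 9 class II genes, 3 of 21 class I genes and 5 of the 12 others. The median log2 difference, always DNTLX3+ minus RAG-/-, was -0.56 for class II, -0.13 for class I and -0.96 for the others, against 0.11 over all genes. Cyclic loess rescaling brought that overall median to 0.00 and the class I median to -0.30, and renewed quantile normalization brought the class I median to -0.28. Leaving out 1 array put it between -0.17, without RAG-/- replicate 3, and -0.0078, without DNTLX3+ replicate 2. With dim probe sets left out, the median was -0.84 over the 8 class I genes kept and -3.45 over the 7 class II genes kept. Over all genes kept in that setting it was -0.14. That filter used the mean over all 6 arrays. It kept H2-Aa, Cd74 and H2-Eb1, whose DNTLX3+ means lie under the array medians, through their RAG-/- values. It removed H2-Ea, H2-Eb2 and most M-region genes, so the shift of these medians partly reflects which genes were kept.

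**Figure D1:**
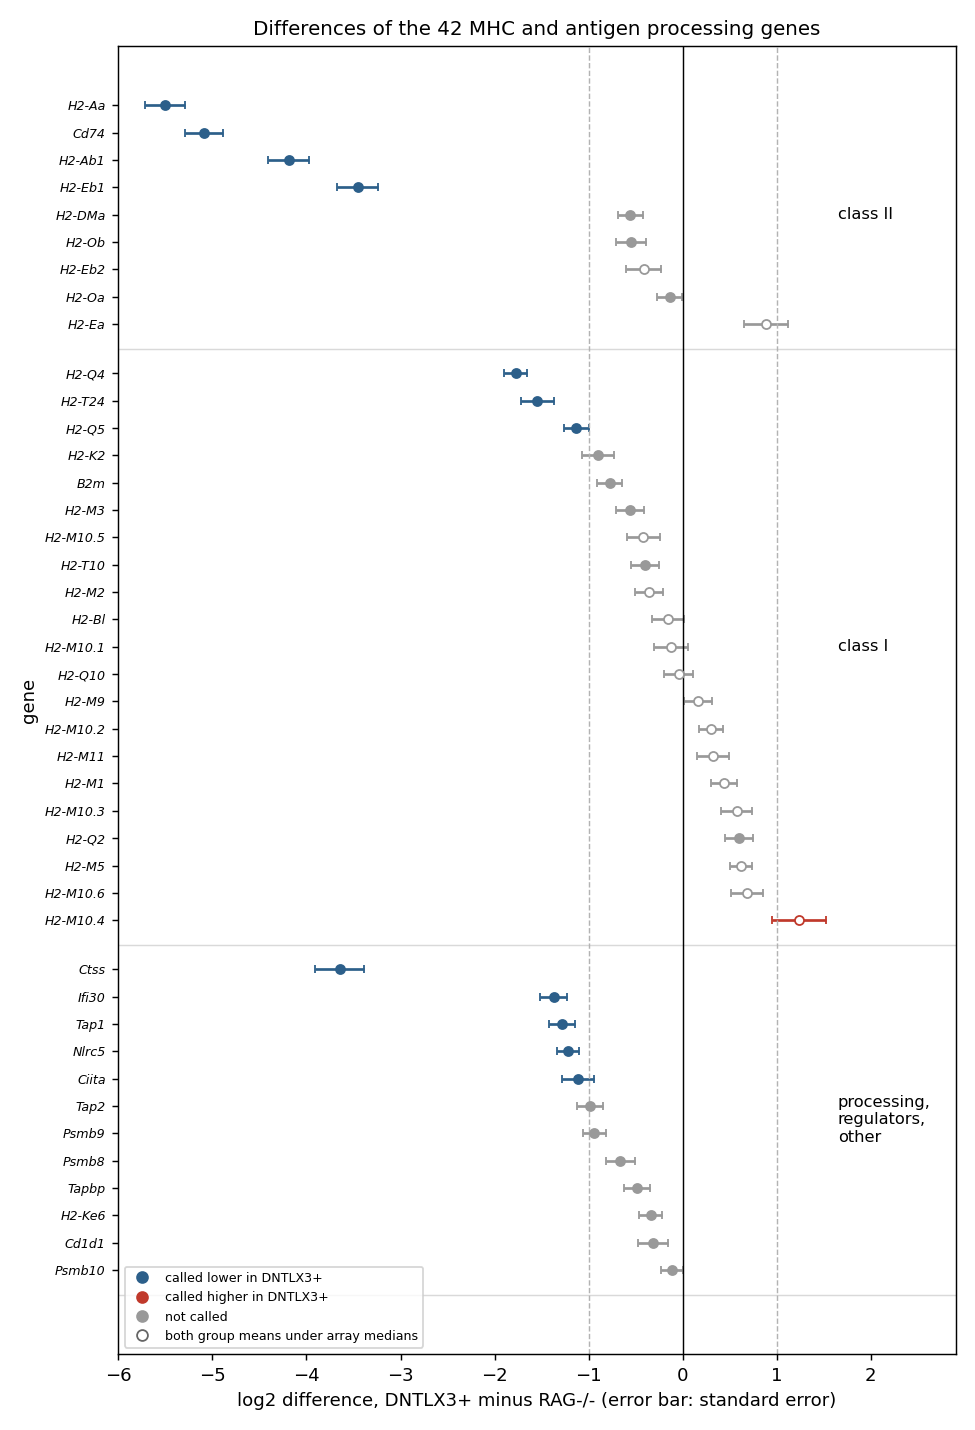
Log2 difference (DNTLX3+ minus RAG-/-, points, with standard error) of each of the 42 genes, grouped into class II, class I and the remaining genes, with dashed lines at the minimum difference of 1 in either direction. H2-Aa, Cd74, H2-Ab1, H2-Eb1 and Ctss stand apart at differences between -5.50 and -3.45, the other 7 falls lie between -1.77 and -1.11, and open points have both group means under the array medians.

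The class II genes split into a set with very large falls and a set with small differences or none called. H2-Aa, the alpha chain of the I-A molecule, had 5.04, 5.39 and 4.63 in DNTLX3+ replicates 1, 2 and 3, against 10.44, 10.29 and 10.83 in RAG-/- replicates 1, 2 and 3 (log2 values, here and below in the same replicate order). The DNTLX3+ values lie under the array medians, and the groups are far apart, with a difference of -5.50 ± 0.21 (SE, limma adjusted p = 4.01e-06). Only 1 of all 19937 genes had a lower difference. Cd74, the invariant chain that escorts class II molecules, had 5.62, 4.95 and 4.95 in DNTLX3+ arrays, against 10.20, 10.06 and 10.52 in RAG-/- arrays. Its difference was -5.09 ± 0.21 (SE, adjusted p = 5.18e-06), again with DNTLX3+ values under the medians.

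H2-Ab1, the partner beta chain of H2-Aa, had 6.50, 6.88 and 6.27 in DNTLX3+ arrays, against 10.61, 10.43 and 11.17 in RAG-/- arrays. Both group means lie above the array medians, so the fall can be given as 18.20-fold (log2 difference -4.19 ± 0.22 SE, adjusted p = 1.75e-05). The DNTLX3+ mean of 6.55 is close to the highest array median of 6.35, and DNTLX3+ replicate 3 lies under that median, so this fold is uncertain. H2-Eb1, the beta chain of the I-E molecule, had 6.03, 5.86 and 6.71 in DNTLX3+ arrays, against 9.71, 9.44 and 9.81 in RAG-/- arrays. The difference was -3.45 ± 0.22 (SE, adjusted p = 3.85e-05), and the DNTLX3+ mean of 6.20 lies just under the medians. No array of either group came near the other group in these 4 genes. They stayed called under every alternative run.

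H2-Ea, the alpha chain that would pair with H2-Eb1, did not follow it. It had 5.22, 4.47 and 4.36 in DNTLX3+ arrays, against 3.90, 4.00 and 3.52 in RAG-/- arrays, so every array of both groups lay under the array medians (difference 0.88 ± 0.23 SE, not called). The gene is listed as a transcribed pseudogene in the RefSeq table used here, and C57BL/6 mice are known to make no E alpha chain. H2-Eb2, a further E beta gene, had 5.70, 5.72 and 5.19 in DNTLX3+ arrays, against 5.79, 5.82 and 6.24 in RAG-/- arrays, also under the medians and not called (-0.41 ± 0.19 SE, adjusted p = 0.102).

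The peptide editors of class II differed little. H2-DMa, a chain of the H2-DM molecule that exchanges the invariant chain remnant for peptide, had 7.08, 7.09 and 7.24 in DNTLX3+ arrays, against 7.52, 7.71 and 7.84 in RAG-/- arrays. It passed the adjusted p (0.00992) but not the minimum difference, being 1.47-fold lower. A further probe set, which the annotation assigns to several DM beta-chain genes and which therefore is no member, was called lower at -1.41. H2-Ob and H2-Oa, the chains of H2-DO, which restrains H2-DM and is known from B cells and thymic epithelium, had differences of -0.55 ± 0.16 (SE, adjusted p = 0.0233) and -0.14 ± 0.13 (adjusted p = 0.409). The groups did not overlap for H2-Ob and overlapped for H2-Oa.

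**Figure D2:**
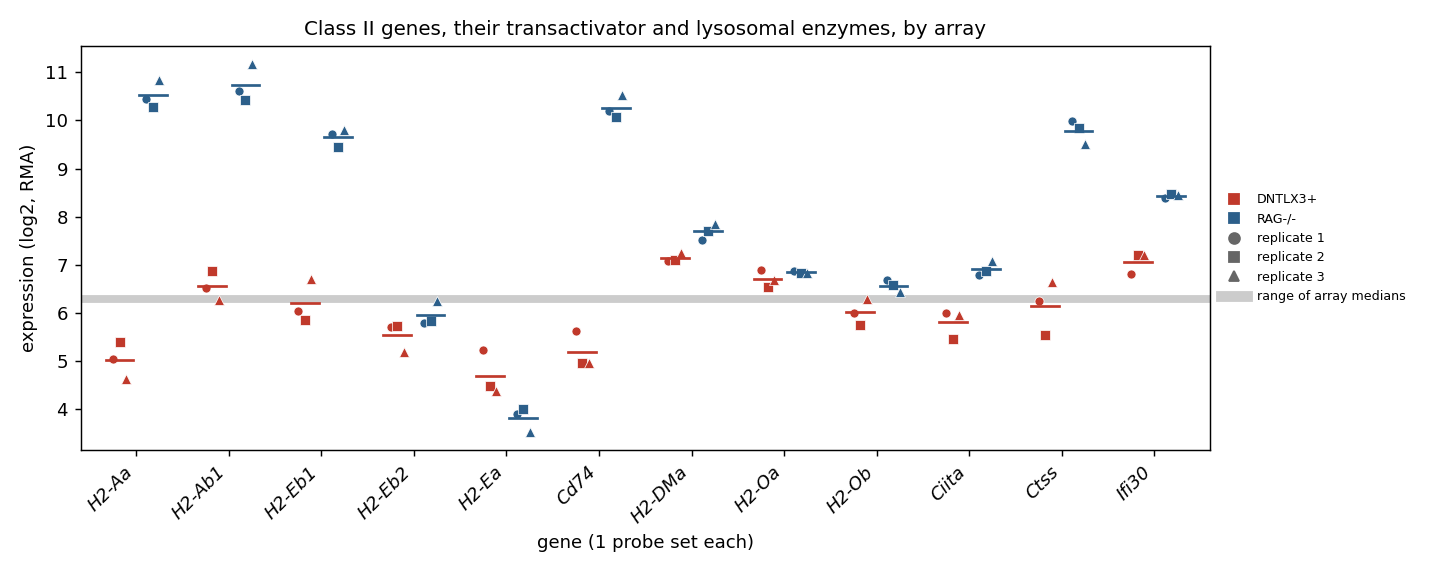
Log2 expression on each array (symbols by replicate, bars for group means) of the class II genes, the transactivator Ciita and the lysosomal enzymes Ctss and Ifi30, with DNTLX3+ left of RAG-/- for each gene and the range of the array medians as a grey band. H2-Aa and Cd74 lie between 4.63 and 5.62 in DNTLX3+ arrays and between 10.06 and 10.83 in RAG-/- arrays, while H2-Oa overlaps between the groups.

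The class II promoter is known for a conserved module in which an X box, bound by RFX, precedes a Y box, bound by NF-Y. The 150 bases before the annotated start are shown for the class II genes that have a RefSeq promoter window with the Y box core, 2 that fell (H2-Aa and H2-Eb1) and 2 that were not called (H2-Eb2 and H2-Oa), to set the element beside the response (build GRCm38.p6, each read in the direction of its gene, capitals marking CTGATTGG).
H2-Aa, chr17:34287824-34287973, minus strand: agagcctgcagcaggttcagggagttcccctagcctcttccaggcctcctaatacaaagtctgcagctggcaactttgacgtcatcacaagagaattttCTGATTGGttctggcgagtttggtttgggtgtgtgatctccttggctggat
H2-Eb1, chr17:34305717-34305866, plus strand: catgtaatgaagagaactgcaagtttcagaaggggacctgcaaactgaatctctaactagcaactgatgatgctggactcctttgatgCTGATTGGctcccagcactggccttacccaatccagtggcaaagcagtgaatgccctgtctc
H2-Eb2, chr17:34325525-34325674, plus strand: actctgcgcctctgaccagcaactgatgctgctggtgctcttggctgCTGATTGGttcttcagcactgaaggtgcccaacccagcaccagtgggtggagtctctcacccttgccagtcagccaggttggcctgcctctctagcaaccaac
H2-Oa, chr17:34092229-34092378, plus strand: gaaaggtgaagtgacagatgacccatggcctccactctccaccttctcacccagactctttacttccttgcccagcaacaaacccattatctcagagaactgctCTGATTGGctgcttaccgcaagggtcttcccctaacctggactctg

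In these 4 windows the Y box core reads in the direction of the gene and begins 51 bases before the start in H2-Aa, 62 in H2-Eb1, 103 in H2-Eb2 and 46 in H2-Oa. Searched on both strands of the RefSeq windows, which run from 250 bases before to 50 after each start, it was found in 4 of 7 class II windows, in 9 of 17 class I windows and in 4.1% of all 32851 windows. Each of the class I matches belongs to an M-region gene and reads against the gene, between 57 and 82 bases before the start. The Y box core was therefore present in class II genes with and without a called fall. Of the 42 genes, 30 have a window in the RefSeq table, some with more than 1, and H2-Ab1, Cd74, Ciita and Nlrc5 are not among them.

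The lysosomal enzymes fell with the class II chains. Ctss, cathepsin S, which trims the invariant chain in dendritic cells and B cells, had 6.25, 5.53 and 6.63 in DNTLX3+ arrays, against 9.99, 9.84 and 9.52 in RAG-/- arrays. The difference was -3.65 ± 0.26 (SE, adjusted p = 5.28e-05), with no overlap and a DNTLX3+ mean of 6.14, under the medians. Ifi30, the thiol reductase GILT that unfolds disulfide-linked antigens, had 6.80, 7.20 and 7.19 in DNTLX3+ arrays, against 8.39, 8.48 and 8.45 in RAG-/- arrays, which makes it 2.59-fold lower (adjusted p = 0.000299).

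Of 8 further genes of lysosomal processing and class II turnover, 6 fell, none rose and 2 were not called, with a median difference of -1.24. Lgmn, an asparaginyl endopeptidase of the endosome, fell by 2.99 on the log2 scale. Ctsl, cathepsin L, the enzyme that trims the invariant chain in mouse cortical thymic epithelium, had 7.74, 8.15 and 7.71 in DNTLX3+ arrays, against 10.61, 10.42 and 11.34 in RAG-/- arrays, a difference of -2.92 ± 0.24 (SE). The others were Ctsh (-1.97), Ctsd (-1.29), Ctsb (-1.19) and the tetraspanin Cd63 (-1.11, or -0.99 and not called without RAG-/- replicate 2). The ubiquitin ligase Marchf1, which removes class II from the surface, differed by 0.04, and its relative Marchf8 by -0.58, neither called. Marchf8 passed the adjusted p and Marchf1 did not. Of 5 costimulatory genes of antigen-presenting cells, Cd83 (-1.32) and Cd86 (-1.07) fell, and Cd80, Cd40 and Icosl were not called. Among the uncalled, only Icosl (-0.57) passed the adjusted p. Cd86 lost its call without DNTLX3+ replicate 3 (-0.95) or RAG-/- replicate 1 (-0.99).

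Ciita, the class II transactivator, had 5.99, 5.46 and 5.96 in DNTLX3+ arrays, against 6.79, 6.88 and 7.08 in RAG-/- arrays. The groups did not overlap and the difference was -1.11 ± 0.17 (SE, adjusted p = 0.00142), with the DNTLX3+ mean under the array medians. Without DNTLX3+ replicate 2 the difference was -0.94 and Ciita was not called. Of 12 factors that act on class II transcription, 1 fell, 1 rose and 10 were not called. Of all genes with a group mean above the array medians, 8.29% were called lower and 1.56% higher, so 1 fall in 12 is near that share. Irf8, an interferon regulatory factor of dendritic and myeloid cells, was lower by 1.35 (7.07, 6.67 and 7.12 in DNTLX3+ arrays, against 8.36, 8.16 and 8.41 in RAG-/- arrays). Pou2af1, a coactivator of octamer factors known from B cells, was higher by 1.18 (7.22, 6.97 and 7.05 in DNTLX3+ arrays, against 6.06, 5.80 and 5.83 in RAG-/- arrays). Among the subunits that bind the X and Y boxes, Rfx5 passed the adjusted p only, at -0.71, and Rfxap (-0.16), Rfxank (-0.26), Nfya (-0.22), Nfyb (-0.15) and Nfyc (0.30) did not pass it. Spi1, the myeloid factor PU.1, stood at -0.75 and Creb1 at -0.41, both passing the adjusted p and neither called.

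The class I genes showed smaller differences in both directions. Of the 21, 3 were called lower and 1 higher, and 6 lower and 6 higher passed the adjusted p alone, where 19.4% of all genes passed it lower and 23% higher. That balance depended on the scaling: 8 lower and 3 higher class I genes passed after cyclic loess, and likewise 8 and 3 after renewed quantile normalization. Without RAG-/- replicate 1, 6 lower and 3 higher passed. Of the 6 higher in the fit reported, 5 are M-region genes with both group means under the array medians. With dim probe sets left out, 8 class I genes remained, of which 7 passed lower and 1 higher. The share of all genes that passed in that setting was not counted, and the median difference over all genes kept there was -0.14. The 7 and 1 therefore have no share to stand beside. The 8 class I genes with a group mean above the array medians include the 3 falls. H2-Q4, a nonclassical class I gene of the Q region, had 7.86, 8.06 and 8.07 in DNTLX3+ arrays, against 9.74, 9.80 and 9.77 in RAG-/- arrays. Both groups were tight, and H2-Q4 was 3.42-fold lower in DNTLX3+ arrays (log2 difference -1.77 ± 0.12 SE, adjusted p = 4.59e-05).

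H2-T24, a T-region gene, had 6.72, 6.36 and 6.96 in DNTLX3+ arrays, against 8.38, 8.28 and 8.01 in RAG-/- arrays, a 2.92-fold fall without overlap (adjusted p = 0.000413). H2-Q5, listed as a transcribed pseudogene, had 7.12, 6.93 and 7.16 in DNTLX3+ arrays, against 8.32, 8.16 and 8.12 in RAG-/- arrays. Its difference of -1.13 ± 0.13 (SE, adjusted p = 0.000412) shrank to -0.95 after renewed quantile normalization and to -0.98 after cyclic loess, and the call was lost in both. H2-Q2 went the other way without being called: 7.34, 7.72 and 7.58 in DNTLX3+ arrays, against 6.85, 6.85 and 7.15 in RAG-/- arrays (0.60 ± 0.15 SE, adjusted p = 0.0119). The Q genes are near-identical copies of each other, as are many T genes, so signal between them may be shared, and probe sequences were not analysed here.

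B2m, the light chain shared by all class I molecules, had 12.04, 12.05 and 11.87 in DNTLX3+ arrays, against 12.76, 12.91 and 12.61 in RAG-/- arrays. It was 1.71-fold lower with no overlap, which passed the adjusted p (0.00227) but not the minimum difference. H2-M3, which presents formylated peptides, was 1.48-fold lower and likewise not called. H2-T10, listed as a transcribed pseudogene, had a difference of -0.40 ± 0.15 (SE, adjusted p = 0.0576). H2-Bl (-0.16) and H2-Q10 (-0.04) had both means under the array medians and overlapped between the groups. H2-K2, also a pseudogene, stood at -0.90 and was called without DNTLX3+ replicate 1 (-1.01) and with array weights (-1.05). Cd1d1, a class I-like molecule that presents lipids to NKT cells, had 7.88, 8.18 and 8.46 in DNTLX3+ arrays, against 8.50, 8.46 and 8.49 in RAG-/- arrays, and was not called (adjusted p = 0.133).

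The classical genes H2-K1 and H2-D1 have no probe set with a single symbol and so are not among the members. The array holds 7 probe sets that the annotation assigns jointly to several class I genes. Of these, 4 were called lower and none higher, with differences from -2.18 to 0.10, where 5.41% of all tested probe sets were called lower. The 2 of them assigned jointly to classical genes had differences of -1.48 and -1.19, each with DNTLX3+ and RAG-/- arrays apart. These shared probe sets were examined after the values of the members were seen.

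**Figure D3:**
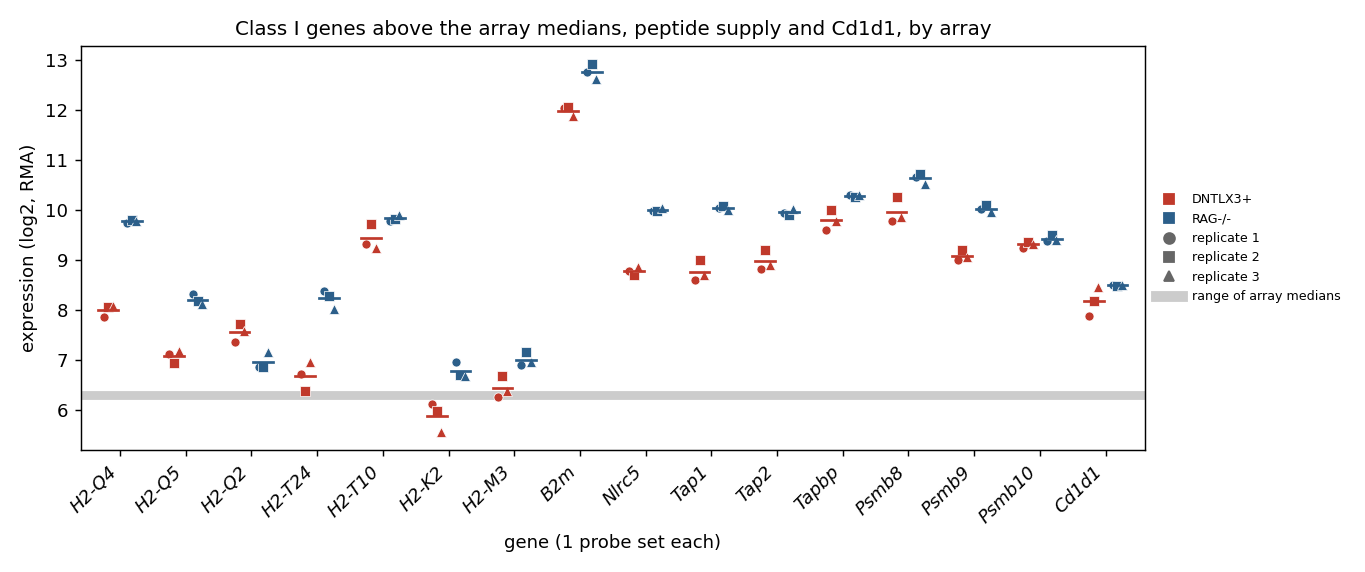
Log2 expression on each array (symbols by replicate, bars for group means) of 7 class I heavy-chain genes and B2m, of Nlrc5, and of the genes of peptide supply and Cd1d1, with DNTLX3+ left of RAG-/- and the range of array medians in grey. H2-Q4, H2-T24, H2-Q5, Nlrc5 and Tap1 lie lower in each DNTLX3+ array by at least 1 log2 unit in the mean, H2-Q2 lies higher, and Psmb10 nearly coincides.

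Most of the 12 M-region genes were dim. Of these, 11 had both group means under the array medians, H2-M3 being the exception, and 8 of 12 differences were above 0 (median 0.31, range -0.56 to 1.24). The median was 0.061 after cyclic loess and 0.085 after renewed quantile normalization, with 7 of 12 above 0 in each. Only H2-M10.4, a class I gene known from the vomeronasal organ, was called, with 6.72, 6.11 and 5.38 in DNTLX3+ arrays, against 4.75, 5.05 and 4.71 in RAG-/- arrays. DNTLX3+ replicate 1 is the highest and replicate 3 the lowest of its group. The difference of 1.24 ± 0.29 (SE, adjusted p = 0.00905) was no longer called without DNTLX3+ replicate 1 (0.91), after cyclic loess (0.99) or with array weights (0.90). In the 9 class I genes outside the M region the median difference was -0.78, and 8 of 9 were below 0. The difference between these sets of genes was not tested.

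Nlrc5, the class I transactivator, fell on nearly all of its probe sets. On the brightest it had 8.77, 8.70 and 8.86 in DNTLX3+ arrays, against 9.97, 9.98 and 10.03 in RAG-/- arrays, which is 2.33-fold lower (log2 difference -1.22 ± 0.12 SE, adjusted p = 0.000202). The gene has 19 single-symbol probe sets on this array. Of these, 17 were called lower and none higher, where 5.41% of all tested probe sets were called lower, and their differences ran from -2.53 to 0.12 with a median of -1.70. The 2 that were not called stood at -0.95 and 0.12. The brightest probe set thus gave one of the smaller falls, and the mean over the 19 gave -1.61. The probe sets share the same RNA and are no replicates of each other.

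**Figure D4:**
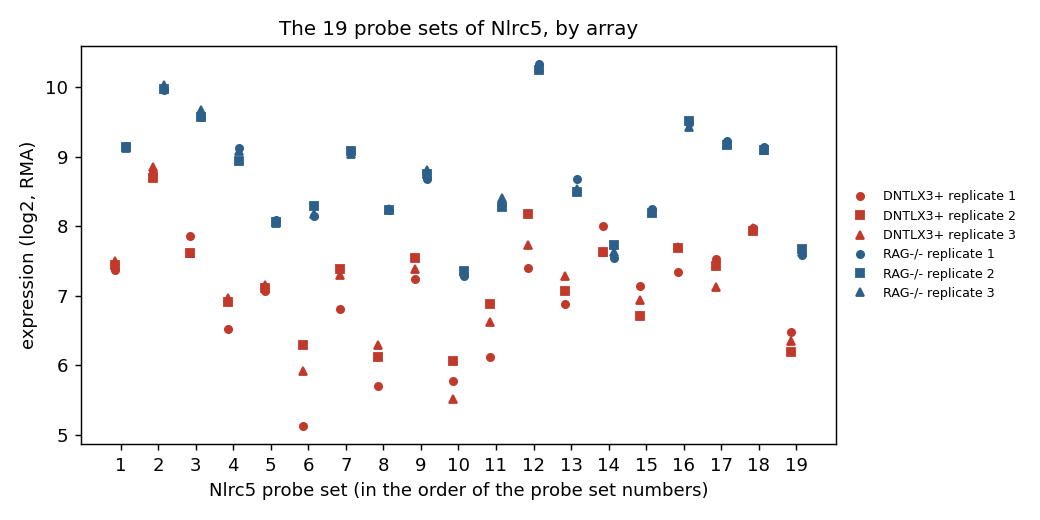
Log2 expression of each of the 19 probe sets of Nlrc5 on each array, in the order of their numbers, with DNTLX3+ (red) left of RAG-/- (blue). The RAG-/- arrays lie above the DNTLX3+ arrays in 18 probe sets and the groups overlap in the remaining 1.

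The promoter windows of a called and an uncalled class I gene are shown for the elements searched (build GRCm38.p6, 150 bases before the start, in the direction of the gene). In H2-Q4 capitals mark a match to the X box pattern, in which CC, G, AC and GATG are fixed with 2, 2 and 1 free bases between them, and the inverted CCAAT box ATTGG, and in B2m the interferon-stimulated element, a pair of GAAA 2 free bases apart, and ATTGG, with only matches along the gene in capitals.
H2-Q4, chr17:35379467-35379616, plus strand: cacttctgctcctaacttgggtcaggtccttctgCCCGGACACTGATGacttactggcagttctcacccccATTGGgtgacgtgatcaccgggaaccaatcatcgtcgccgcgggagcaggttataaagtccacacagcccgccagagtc
B2m, chr2:122147537-122147686, plus strand: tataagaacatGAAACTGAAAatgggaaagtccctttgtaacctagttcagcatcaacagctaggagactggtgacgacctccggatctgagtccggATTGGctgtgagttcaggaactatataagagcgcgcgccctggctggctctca

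In H2-Q4 the X box match begins 116 bases and the ATTGG 79 bases before the start. The X box pattern was found in 0.289% of all 32851 windows and in 2 of the 32 windows of the members, the other being that of H2-M3. It was found in 0 of 7 class II windows. Only exact matches to the pattern were counted, so an X box that departs from it by 1 base was missed, and its absence was not shown. In B2m the interferon-stimulated element begins 139 and the ATTGG 53 bases before the start. The element was found in 3.44% of all windows and in 1 further member, Ctss, while ATTGG, part of the Y box core, was found in 37.4% of all windows and in 25 of the 32. The kappa-B site, searched as GGGGA and TCCC with 1 free base between, was found in none of the 32 windows and in 0.323% of all.

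The genes of class I peptide supply were lower in every DNTLX3+ array than in every RAG-/- array, with differences of graded size. Tap1, a subunit of the peptide transporter, had 8.59, 8.98 and 8.70 in DNTLX3+ arrays, against 10.04, 10.08 and 10.00 in RAG-/- arrays, a 2.43-fold fall (adjusted p = 0.000327). Tap2, the other subunit, had 8.81, 9.19 and 8.89 in DNTLX3+ arrays, against 9.94, 9.90 and 10.00 in RAG-/- arrays. At -0.99 it missed the minimum difference, and it was called with equal array medians (-1.05), without DNTLX3+ replicate 2 (-1.10) and without RAG-/- replicate 2 (-1.01). Tapbp, tapasin, which holds class I at the transporter, had 9.60, 10.00 and 9.78 in DNTLX3+ arrays, against 10.29, 10.26 and 10.29 in RAG-/- arrays (-0.49 ± 0.14 SE, adjusted p = 0.019, not called).

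The catalytic subunits of the immunoproteasome, which replace those of the constitutive proteasome under interferon, differed among themselves. Psmb9 had 8.99, 9.19 and 9.06 in DNTLX3+ arrays, against 10.01, 10.09 and 9.96 in RAG-/- arrays, a 1.92-fold difference just short of the minimum (-0.94, reaching the minimum and called only with equal array medians). Psmb8 had 9.77, 10.26 and 9.86 in DNTLX3+ arrays, against 10.66, 10.71 and 10.52 in RAG-/- arrays (-0.66 ± 0.15 SE, adjusted p = 0.00894). Psmb10 had 9.24, 9.36 and 9.31 in DNTLX3+ arrays, against 9.38, 9.50 and 9.40 in RAG-/- arrays. Its difference of -0.12 turned to 0.017 after renewed quantile normalization and to 0.026 after cyclic loess. Psmb8 and Psmb9 lie beside Tap1 and Tap2 on chromosome 17, whereas Psmb10 lies on chromosome 8.

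Among the constitutive subunits, Psmb5 (-0.18) and Psmb6 (-0.11) did not pass the adjusted p and Psmb7 (-0.56) passed it without being called. Psmb11, the thymoproteasome subunit of cortical thymic epithelium, had 5.95, 5.45 and 5.77 in DNTLX3+ arrays, against 8.13, 8.22 and 8.83 in RAG-/- arrays, a called difference of -2.67. Of 10 measured genes of class I loading and trimming, none was called at the minimum difference (limma). Tapbpl (-0.61), Cd1d2 (-0.52) and Mr1 (-0.47) passed the adjusted p alone, and the chaperones Calr (0.13), Canx (-0.08) and Pdia3 (-0.06) did not.

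Interferons are known to induce NLRC5, TAP1 and the immunoproteasome, and genes of that pathway were examined beside them. There were 7 falls and no rises among the 16 measured, with a median difference of -0.66. Ifit3, an interferon-induced antiviral gene, had 3.97, 4.08 and 4.06 in DNTLX3+ arrays, against 6.14, 6.54 and 5.53 in RAG-/- arrays (-2.03 ± 0.23 SE), with both group means under the array medians. Ifit1 (-1.88), Irf7 (-1.37), Irf9 (-1.30), Rsad2 (-1.23), the GTPase Irgm1 (-1.11) and the kinase Jak2 (-1.07) fell as well. Jak2 and Irgm1 lost the call after renewed quantile normalization (-0.88 and -0.93), after cyclic loess (-0.89 and -0.93) and without DNTLX3+ replicate 1 (-0.96 and -0.88). Irgm1 was also not called with array weights (-0.99). The receptor chains Ifngr1 (-0.59) and Ifnar1 (-0.52) passed the adjusted p without being called, and Ifngr2 (-0.08) did not pass it. Irf2 (-0.60) and Irf1 (-0.71) likewise passed the adjusted p without being called. Irf1 is the factor that drives class I and immunoproteasome genes downstream of interferon gamma.

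The members lie mostly on chromosome 17, where 34 of the 42 map, and Cd74 (chromosome 18), Ciita (16), B2m (2), Ctss and Cd1d1 (3), and Nlrc5, Ifi30 and Psmb10 (8) lie elsewhere. Along chromosome 17, from Tapbp to H2-M2, 7 of the 34 members and 4 of 130 other genes were called lower, against 5.07% of all genes. The medians of the differences were -0.41 for these members and 0.15 for the other genes. Between H2-Ea and H2-Q2, a stretch that holds the class III genes, 1 of 60 other genes was called lower, Aif1, a macrophage gene, and none higher. In the class II stretch from H2-Oa to H2-Ea, the chains with falls of over 3 log2 units (H2-Ab1, H2-Aa and H2-Eb1) have H2-Ob and H2-Eb2, which were not called, as neighbours. Of the 12 members called lower, 5 (Cd74, Ctss, Ifi30, Nlrc5 and Ciita) map to other chromosomes.

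The groups did not overlap for 35 of the 42 members, of which 27 were lower and 8 higher in DNTLX3+ arrays, where 26% of all genes lay apart with DNTLX3+ below and 32.3% with DNTLX3+ above. Within the RAG-/- group the genes that fell did not vary together. H2-Aa, Cd74, H2-Ab1 and H2-Eb1 were each highest in RAG-/- replicate 3 and lowest in replicate 2, with H2-Ab1 0.43 above its group mean in replicate 3 and 0.31 below it in replicate 2. Each of the 7 called thymic epithelial markers was also highest in replicate 3, at a median of 0.50 above the group mean. Prss16, an epithelial serine protease and the 1 gene with a lower difference than H2-Aa, had 6.49, 5.60 and 5.59 in DNTLX3+ arrays, against 11.18, 11.12 and 12.17 in RAG-/- arrays. Ctss was highest in RAG-/- replicate 1 and lowest in replicate 3. Of the 12 called myeloid and dendritic markers, 10 were highest in replicate 1 and 7 were lowest in replicate 3. The other 2, Itgax (7.81, 7.80 and 8.03 in RAG-/- arrays) and Siglech (6.29, 6.19 and 6.66), were highest in replicate 3 and lowest in replicate 2. That is the order of H2-Aa, Cd74, H2-Ab1 and H2-Eb1.

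Several other genes that fell were steadier within the RAG-/- group. Over its 3 arrays, Nlrc5 spanned 0.06 log2 units, Tap1 0.08, H2-Q4 0.06 and Ifi30 0.09, against 0.74 for H2-Ab1, 0.48 for Ctss and 0.37 for H2-T24. The 7 called interferon genes had a median deviation of 0.52 below the group mean in replicate 3, and 6 of the 7 were lowest there, a spread that Nlrc5 and Tap1 did not share. With 3 arrays a group, these patterns are a description and carry no test.

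**Figure D5:**
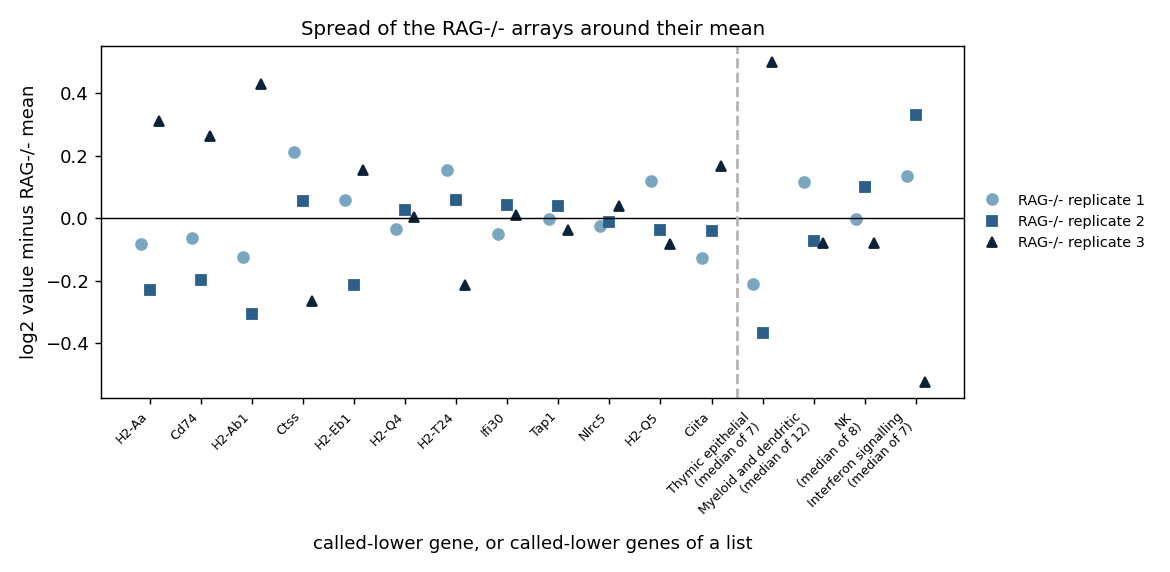
Log2 value of each RAG-/- array minus the RAG-/- mean, for the 12 members called lower and, right of the dashed line, as the median over the called-lower genes of 4 lists. H2-Aa, Cd74, H2-Ab1, H2-Eb1 and the epithelial list are highest in replicate 3, Ctss and the interferon list are lowest there, and Nlrc5, Tap1, H2-Q4 and Ifi30 stay within 0.06 of 0.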

How the data were processed

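Arrays were grouped and numbered by their labels. What the authors deposited is a log2 value for each probe set, which the submitters' processing notes credit to RMA (affy, R 2.9.0), so background correction, quantile scaling and probe summary preceded deposit. The interquartile range still differed, from 2.47 to 2.85 in DNTLX3+ arrays and from 3.09 to 3.18 in RAG-/- arrays. Their genome build is not given here by any source used.

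From 34760 probe sets, the 6568 with the lowest numbers, none of them with a listed gene, were set aside as presumed controls. Of the 28192 tested, 21640 have 1 symbol, 1321 several and 5231 none, and those with several name no gene. The test was two-sided, by lmFit and eBayes of limma 3.58.1 under R 4.3.3 without covariates, adjusted by Benjamini-Hochberg over the 28192 and tested on simulated data. A fold is printed only if neither group mean fell under the array medians. Precision is limited by having 3 arrays a group.

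The members and the lists of related genes and markers were chosen with earlier results of these data known. Every member is accounted for. The value of every array is given for called members and for B2m, Cd1d1 and the regulator and processing genes among the members. The pathway lists have their called genes and up to 3 uncalled ones of largest difference named, and marker lists are given mostly by counts. Further uncalled listed genes, and those listed genes given by array, were chosen after their values were seen. Lnpep, Gbp2, Igtp and Isg15, which lack a probe set of their own, were not analysed here. Promoter windows (250 bases before and 50 after each start) are from RefSeq, build GRCm38.p6, matched by gene identifier. Figures were drawn with matplotlib 3.10.9.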

Additional observations from a re-analysis of the deposited data

How the results depend on the processing

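The alternatives were renewed quantile normalization, equal array medians, cyclic loess, array weights, a trended and robust variance, a replicate block, removal of dim probe sets, averaging over probe sets, dropping the minimum difference, and omission of each array in turn. The count of class II genes called lower was 4 under each of them except without the minimum difference, where it was 6. With no minimum difference, 6 class I genes and 9 of the other members were lower, 7 members were higher and 31 genes of the pathway lists were called, since that setting only removes the minimum. The number of members called higher, 1 in the fit reported, was 0 after cyclic loess, with array weights and with dim probe sets left out, which removes H2-M10.4. It ran from 0 to 2 when 1 array was left out, being 0 without DNTLX3+ replicate 1 and 2 without DNTLX3+ replicate 3, where H2-Ea joined it at 1.04. Leaving out 1 array gave 4 class II genes lower each time, 3 to 4 class I genes, 5 to 6 of the others and 16 to 18 listed genes. Calls were lost by H2-Q5, H2-M10.4 and Ciita among the members, and by Cd63, Cd86, Irgm1 and Jak2 among the 18 called genes of the lists, in the settings named above. Leaving out dim probe sets kept 14 of those 18, removing Cd63, Cd86, Ctsh and Ifit3. Small differences changed sign for H2-M9 (-0.060 after renewed quantile normalization and -0.12 after cyclic loess), Psmb10 (0.017 and 0.026 in the same settings), H2-M10.1 (-0.24 to 0.054 when 1 array was left out, positive without DNTLX3+ replicate 2) and H2-Q10 (-0.17 to 0.10, positive without RAG-/- replicate 2). The cause of these changes was not tested. Same-numbered arrays of the groups did not deviate together over all probe sets (correlations of -0.11, 0.06 and -0.00 for replicates 1, 2 and 3). With 3 arrays a group, this cannot show whether same-numbered arrays share more than a number. With the replicate block, 4 class II, 3 class I and 5 other members were lower and 1 was higher, as without it. Group means under the array medians may be background, so the true size of the falls of H2-Aa, Cd74, H2-Eb1 and Ctss is not known. The DNTLX3+ mean of H2-Ab1 lies just above the medians, so its fold is uncertain as well.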
